A study of Homo sapiens with 8 samples.

Results

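The genes described here are 10 genes of the negative feedback on ERK signaling: the phosphatase genes DUSP4, DUSP5 and DUSP6, the Sprouty genes SPRY1, SPRY2 and SPRY4, the Sprouty-related genes SPRED1 and SPRED2, and the ETS factor genes ETV4 and ETV5. They were chosen by name, and 8 of the 10 have a row among the 14526 genes of the deposited expression table. DUSP6 and SPRY4 have no row, so their expression was not analysed and only their promoter windows were searched. The cells are labeled HepG2, a line derived from a human liver carcinoma, and were grown in DMEM with serum. The SB-treated group received 10 mM sodium benzoate (SB), a food preservative, for 24 h before harvest, and the control group did not. Each group holds 4 biological replicates, and the comparison asks which transcripts change when SB is present. Nothing says how far these were handled apart, so p-values measure only the spread between these samples.

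ERK is the last kinase of the cascade in which growth factor receptors activate RAS, RAF and MEK. Active ERK enters the nucleus and induces genes whose products dampen the same cascade: DUSP phosphatases remove the activating phosphates from MAP kinases, and Sprouty and SPRED proteins act on the steps between the receptor and RAF. ETV4 and ETV5 are ETS transcription factors of the PEA3 group that are induced by the same signal and are repressed, like several Sprouty and DUSP genes, by the DNA-binding protein Capicua (CIC). For this reason the transcripts of these genes are widely used as a readout of ERK output.

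Levels are given as RPKM, reads scaled to the length of the gene and the depth of the library. The reads recovered from these values amounted to between 36964791 and 44463042 per control library and between 37135188 and 44846247 per SB-treated library. Control replicate 1 stood apart, with a chi-square per degree of freedom of 33.4 to 38.4 against the other controls, where all other replicate pairs had 1.52 to 3.80. Members and related family genes whose call changes without it are given beside their values. Of 20 genes that mark hepatocytes and hepatoma cells, 16 have no row, ALB, AFP, APOA1 and HNF4A among them. TF, FOXA1 and CYP3A5 were at 1.32 RPKM or less on average in either group, and higher in all SB-treated replicates than in all controls. Most markers of the labeled cell type are therefore not seen here. The authors kept only genes above 1 CPM (reads scaled to the depth of the library) in 2 or more samples. TF had 19 to 25 reads per control library, less than 1 CPM, and 40 to 52 after SB. TF has a row only through SB-treated libraries, so this filter favored its rise. Group differences are log2 fold changes on the log2(RPKM + 1) scale from limma, which understate the change of genes with low RPKM, and adjusted p-values cover all 14526 genes.

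SPRY1, SPRY2 and DUSP4 were lower in SB-treated cells, and the other 5 measured members did not pass the test in either direction. The means of the 3 genes fell by 33.1%, 26.0% and 30.5%. No member was higher. In RNA from whole cultures, fewer cells expressing a gene and less RNA per cell cannot be told apart. The 3 lower genes are 37.5% of the 8 measured members, whereas 32.6% of all genes were lower and 33.0% were higher at an adjusted p-value below 0.05. The share of members that fell is therefore close to that of the whole table. The median log2 fold change was -0.05 over the 8 members and 0.00 over all genes. The same 3 members had groups that did not overlap. Among all genes 30.5% of genes had SB-treated values all below the controls and 31.0% had them all above.

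**Figure D1:**
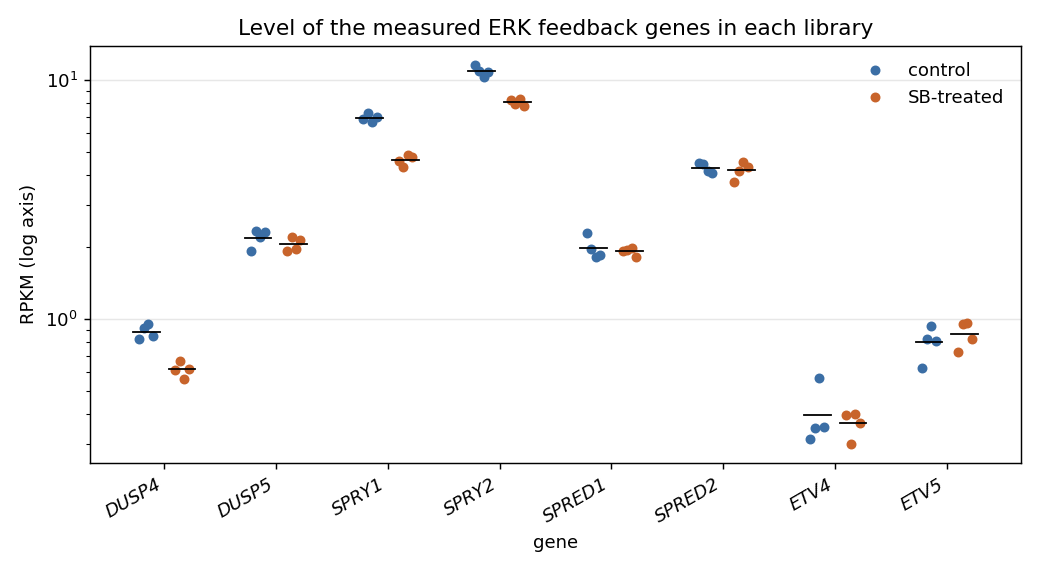
RPKM of the 8 measured ERK feedback genes in each library on a log axis, with 1 point per replicate (4 control, 4 SB-treated) and a line at the group mean. The SB-treated points of SPRY1 (4.34 to 4.87), SPRY2 (7.75 to 8.30) and DUSP4 (0.563 to 0.668) lie below their controls, and the points of the other 5 genes overlap.

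SPRY1 encodes a Sprouty protein that restrains receptor tyrosine kinase signaling. This protein-coding gene occupies chr4:123396795-123403760 (hg38, plus strand). It was at 6.87, 7.24, 6.65 and 6.97 RPKM in control replicates 1 to 4, and at 4.59, 4.34, 4.87 and 4.76 RPKM in SB-treated replicates 1 to 4. Each SB-treated value was below each control. The means were 6.93 ± 0.244 RPKM (SD, n = 4) and 4.64 ± 0.228 RPKM (SD, n = 4), or 836 and 590 reads. On the log2 scale SPRY1 changed by -0.49 ± 0.04 (SE; adjusted p = 6.77e-06 by limma), with a 95% interval from -0.58 to -0.40. This was the largest fall among the members, and 5.67% of all genes had a lower value.

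SPRY2, another Sprouty gene, had the highest level among the members. It occupies chr13:80335976-80341126 (minus strand). The controls were at 11.6, 10.9, 10.3 and 10.8 RPKM, and the SB-treated replicates at 8.27, 7.96, 8.30 and 7.75 RPKM. The groups did not overlap, and the lowest control exceeded the highest SB-treated value by more than the spread within the SB-treated group. The mean went from 10.9 ± 0.510 to 8.07 ± 0.263 RPKM (SD, n = 4 each), from 915 to 710 reads. On the log2 scale SPRY2 changed by -0.39 ± 0.04 (SE; adjusted p = 2.71e-05 by limma), with a 95% interval from -0.48 to -0.30.

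Because SPRY1 and SPRY2 fell together, the 250 bases before their RefSeq start sites are shown, 5′ to 3′ on the strand of the gene, at chr4:123396545-123396794 (plus) and chr13:80341127-80341376 (minus) of GRCh38.p14. Capitals mark a match on either strand to CCGGAA, the short form of the ETS motif CCGGAAGT. Shorter parts of it, such as GGAA, were not searched for and are not marked.
SPRY1: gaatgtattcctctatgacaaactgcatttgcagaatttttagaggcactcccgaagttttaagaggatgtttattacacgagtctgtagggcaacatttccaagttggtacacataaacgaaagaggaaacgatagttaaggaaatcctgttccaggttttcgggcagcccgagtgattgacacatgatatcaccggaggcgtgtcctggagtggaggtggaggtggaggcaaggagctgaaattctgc
SPRY2: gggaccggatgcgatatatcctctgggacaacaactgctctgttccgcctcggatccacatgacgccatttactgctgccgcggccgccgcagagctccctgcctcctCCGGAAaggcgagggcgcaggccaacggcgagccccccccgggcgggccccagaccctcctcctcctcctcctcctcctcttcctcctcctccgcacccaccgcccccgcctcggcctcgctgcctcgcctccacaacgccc

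The windows differed in base composition, with 45.6% G and C in SPRY1 and 70.4% in SPRY2. RefSeq windows from 250 bases before to 50 after the start were searched on both strands for CCGGAA, for its longer form CCGGAAGT, which contains it, for the CIC octamers TGAATGAA and TGAATGGA, for the AP-1 site TGANTCA and for the CRE TGACGTCA. Among the 6 member windows searched (DUSP6, SPRY1, SPRY2, SPRY4, SPRED1 and SPRED2), CCGGAA was found in 1, that of SPRY2, where it begins 142 bases before the start. It is present in 17.2% of the 35116 windows of this length. No window of DUSP4, DUSP5, ETV4 or ETV5 was searched. The other letters were found in none of the 6, and their shares over the 35116 windows were 4.14% for CCGGAAGT, 1.65% for TGAATGAA, 1.03% for TGAATGGA, 7.71% for TGANTCA and 1.85% for TGACGTCA. The member with the profile most like that of SPRY2 over the 8 libraries was SPRY1 (Pearson r = 0.97). In the whole table the highest correlations with SPRY2 were those of EAF2, JADE3 and C12orf73 (r of at least 0.99). These correlations are across 2 groups of 4 libraries and carry the difference between the groups.

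SPRED1 and SPRED2 encode Sprouty-related proteins that, with neurofibromin, limit RAS activation. They occupy chr15:38252836-38357249 (plus strand) and chr2:65310851-65432637 (minus strand) of hg38. SPRED1 was at 2.30, 1.95, 1.81 and 1.85 RPKM in the controls and at 1.92, 1.94, 1.98 and 1.83 RPKM in the SB-treated replicates. Control replicate 1 was the highest of the 8 values, and the other 7 lay between 1.81 and 1.98 RPKM. It changed by -0.03 on the log2 scale, with a 95% interval from -0.14 to 0.09 (limma adjusted p = 0.661), and by 0.02 without control replicate 1. SPRED2 was at 4.48, 4.45, 4.15 and 4.09 RPKM in the controls and at 3.75, 4.17, 4.54 and 4.34 RPKM after SB. The ranges overlapped, and the log2 fold change was -0.03 with a 95% interval from -0.14 to 0.09 (limma adjusted p = 0.668). Without SB-treated replicate 1, the lowest value, it was 0.02. The upper limit of the SPRY2 interval, -0.30, lies below the lower limit of both SPRED intervals, although the difference between the genes was not itself tested.

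The dual-specificity phosphatases DUSP4 and DUSP5 are nuclear enzymes that act on MAP kinases. DUSP4 was at 0.826, 0.917, 0.949 and 0.847 RPKM in control replicates 1 to 4. In SB-treated replicates 1 to 4 it was at 0.613, 0.668, 0.563 and 0.615 RPKM. All SB-treated values were below all controls, with means of 0.885 ± 0.0581 and 0.615 ± 0.0427 RPKM (SD, n = 4 each), or 257 and 188 reads. The log2 fold change of DUSP4 was -0.22 ± 0.04 (SE; adjusted p = 0.000507 by limma), with a 95% interval from -0.31 to -0.14. The size depends on the pseudocount, since DUSP4 is below 1 RPKM. It was -0.46 with a pseudocount of 0.1 and -0.52 with voom on the recovered reads.

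DUSP5, at chr10:110497907-110511533 (plus strand), encodes a nuclear phosphatase of ERK. It was at 1.92, 2.33, 2.20 and 2.30 RPKM in the controls and at 1.92, 2.20, 1.95 and 2.14 RPKM in the SB-treated replicates. Replicate 1 was the lowest in both groups. The groups overlapped, and the log2 fold change was -0.06 with a 95% interval from -0.18 to 0.05 (limma adjusted p = 0.31). Without control replicate 1 it was -0.10 and passed the threshold (limma adjusted p = 0.0311), which makes 4 members lower in place of 3. The genes most correlated with DUSP5 over the 8 libraries were VIPR1 (Pearson r = 0.99), KIF17 (0.97) and DLX2-AS1 (0.96), and among the members DUSP4 (0.57).

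ETV4 and ETV5, the PEA3-group factors, were the lowest members in the controls beside DUSP4. They occupy chr17:43527844-43579620 and chr3:186046314-186110318, both on the minus strand. ETV5 was at 0.624, 0.824, 0.935 and 0.811 RPKM in the controls and at 0.729, 0.956, 0.962 and 0.828 RPKM after SB, from means of 129 and 149 reads. The groups overlapped, and the log2 fold change was 0.06 with a 95% interval from -0.08 to 0.19 (limma adjusted p = 0.436). Without control replicate 1, the lowest value, it was 0.01. ETV4 was at 0.315, 0.350, 0.568 and 0.354 RPKM in the controls and at 0.396, 0.301, 0.402 and 0.366 RPKM after SB. These values rest on between 33 and 56 reads per library. The log2 fold change of ETV4 was -0.03 with a 95% interval from -0.16 to 0.10 (limma adjusted p = 0.675). The span of ETV4 lies inside that of DHX8 on the opposite strand, and DHX8 was at 20.3 RPKM in the controls and 20.2 RPKM after SB. Without knowledge of the strand setting, reads of the 2 genes cannot be told apart where their exons overlap. The highest correlations with ETV5 over the 8 libraries were those of ENDOV (Pearson r = 0.97), ACOT2 (0.96) and PIANP (0.96), and among the members that of DUSP5 (0.40).

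In the controls the members were ordered SPRY2, SPRY1, SPRED2, DUSP5, SPRED1, DUSP4, ETV5 and ETV4, from 10.9 to 0.397 RPKM. The ranges of DUSP5 and SPRED1 overlapped, as did those of DUSP4 and ETV5, and the other neighbors did not overlap. SPRY2 stood above 57.1% of all genes in control level and ETV4 above 5.78%. In SB-treated cells SPRY1 and SPRED2 overlapped at 4.64 and 4.20 RPKM, and ETV5 (0.869 RPKM) stood above DUSP4 (0.615 RPKM) with no overlap. Exact two-sided permutation of the 8 libraries gave p = 0.0286 for SPRY1, SPRY2 and DUSP4, which is the smallest this design allows, and p between 0.257 and 0.80 for the other 5 members.

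The remaining genes of the same families moved in different directions. ETV1, the third PEA3-group gene, fell from 0.613 ± 0.0428 to 0.232 ± 0.0316 RPKM (SD, n = 4 each), from a mean of 186 to 74 reads. ETV1 had a log2 fold change of -0.39 ± 0.04 (SE; adjusted p = 1.2e-05 by limma), and it was -1.11 with a pseudocount of 0.1 and -1.41 with voom. SPRY3 (log2 fold change 0.01) and SPRED3 (0.09, limma adjusted p = 0.11) did not pass the test. The value of SPRED3 was 0.24 with a pseudocount of 0.1 and 0.31 with voom, neither past the threshold, and 0.12 without the TMM factors, where it was called higher (limma adjusted p = 0.0376).

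Of the 7 other MAP kinase phosphatase genes, 4 were higher, 2 were lower and 1, DUSP10, did not pass (log2 fold change 0.03, limma adjusted p = 0.454). Without the TMM factors DUSP10 was called higher (0.10, limma adjusted p = 0.0344). DUSP8, whose product acts mainly on JNK and p38, was at 1.11 to 1.53 RPKM in the controls and at 3.01 to 3.32 RPKM after SB, a log2 fold change of 0.84 (limma adjusted p = 1.98e-06). DUSP1, an inducible nuclear phosphatase of p38, JNK and ERK, rose from 28.4 ± 0.497 to 40.8 ± 1.07 RPKM (SD, n = 4 each), a log2 fold change of 0.51. DUSP16, which acts on JNK and p38, rose from 19.8 to 25.9 RPKM (log2 fold change 0.38). DUSP2 was at 0.441 and 0.666 RPKM, from 29.5 and 46.5 reads on average. Its call (log2 fold change 0.21, limma adjusted p = 0.017) was lost without control replicate 3 (0.18, adjusted p = 0.0501) or SB-treated replicate 2 (0.18, adjusted p = 0.0526). The size was 0.52 with a pseudocount of 0.1 and 0.60 with voom, both past the threshold. DUSP2 had 20 to 38 reads per control library, less than 1 CPM, and 43 to 53 after SB. It has a row only through SB-treated libraries, so the authors' filter favored a rise, which limits its place among the 4 higher genes. The ERK-directed phosphatases DUSP9 and DUSP7 were lower. DUSP9 was at 18.6 to 23.2 RPKM in the controls and at 16.8 to 18.8 RPKM after SB (log2 fold change -0.27, limma adjusted p = 0.00545), with an overlap between the groups and no call without the TMM factors (-0.17, adjusted p = 0.0523). DUSP7 went from 10.8 to 10.1 RPKM (log2 fold change -0.10, limma adjusted p = 0.0466), a call that was lost in 10 of 14 alternative fits, and without the TMM factors its value was 0.00. Of the 7 genes 57.1% were higher and 28.6% lower, beside 33.0% and 32.6% of all genes, and nothing particular to the family is read from these shares. The list's median was 0.21, against 0.00 for all genes.

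**Figure D2:**
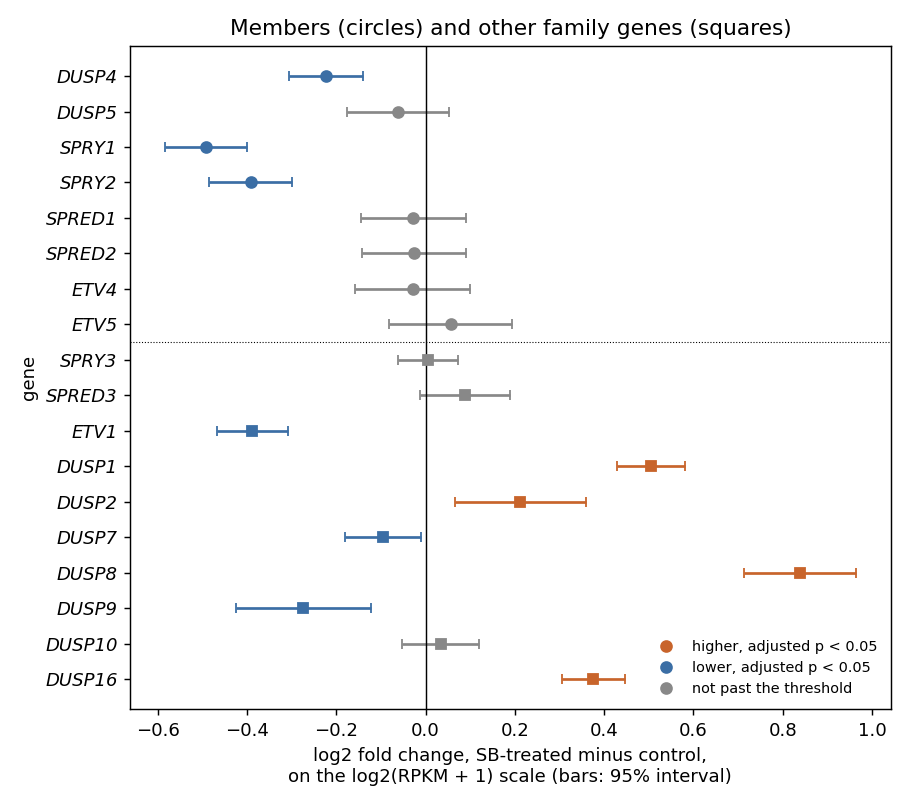
Log2 fold change, SB-treated minus control, on the log2(RPKM + 1) scale for the 8 measured members (circles) and the 10 other family genes (squares), with 95% intervals from limma, colored by the call at an adjusted p-value below 0.05. SPRY1, SPRY2, DUSP4 and ETV1 lie between -0.49 and -0.22, while DUSP8, DUSP1 and DUSP16 lie between 0.38 and 0.84.

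CIC, the repressor that occupies ETV, SPRY and DUSP genes when ERK is inactive, was higher in SB-treated cells. It was at 4.86, 6.27, 6.31 and 5.97 RPKM in the controls and at 10.9, 12.4, 11.9 and 11.2 RPKM after SB. No SB-treated value came near the highest control. CIC had a log2 fold change of 0.88 ± 0.07 (SE; adjusted p = 6.48e-06 by limma), and 99.5% of all genes had a lower value. ATXN1L, which encodes a partner that stabilizes the CIC protein, rose from 5.91 ± 0.217 to 9.14 ± 0.146 RPKM (SD, n = 4 each), a log2 fold change of 0.55 (limma adjusted p = 1.44e-06). The related ATXN1 was at 2.40 and 2.64 RPKM (log2 fold change 0.10, limma adjusted p = 0.0969). Without control replicate 1, the highest value of ATXN1, its log2 fold change was 0.16 (limma adjusted p = 0.000197). Of these 3 genes 2 were higher (66.7%) and 0 lower, beside 33.0% and 32.6% of all genes. With only 3 genes, nothing particular to the list is read from these shares.

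Of 9 other genes that rise with ERK activity in many cells, 8 have a row and FOSL1 has none. Of the 8, 6 were lower and 2 were higher, and the groups did not overlap for any of them. Over the whole table, 30.5% of genes had SB-treated values all below the controls and 31.0% had them all above. IER3, an immediate early gene linked to cell survival, fell from 1.39 ± 0.0866 to 0.603 ± 0.0359 RPKM (SD, n = 4 each), a log2 fold change of -0.58 (limma adjusted p = 1.75e-06) that was -1.08 with a pseudocount of 0.1 and -1.20 with voom. CCND1, which encodes cyclin D1, fell from 26.8 ± 0.628 to 18.8 ± 0.596 RPKM (SD, n = 4 each), and MYC, a transcription factor gene of growth control, from 131 ± 4.80 to 93.1 ± 1.29 RPKM (SD, n = 4 each). Both had a log2 fold change of -0.49. EPHA2 and EPHA4, ephrin receptor genes, had log2 fold changes of -0.42 and -0.22. PHLDA1 fell from 0.743 to 0.499 RPKM, with a log2 fold change of -0.22 that was -0.50 with a pseudocount of 0.1 and -0.57 with voom.

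The 2 that rose were EGR1, an immediate early transcription factor gene, and IL17RD, whose product Sef is itself a feedback inhibitor of FGF and ERK signaling. EGR1 was at 1.45, 1.26, 1.38 and 1.37 RPKM in the controls and at 1.96 to 2.21 RPKM after SB (log2 fold change 0.39, limma adjusted p = 2.28e-05). With voom its log2 fold change was 0.62. IL17RD rose from 2.23 to 2.93 RPKM (log2 fold change 0.28, limma adjusted p = 9.59e-05). The list's median log2 fold change was -0.32. Its share of lower genes, 75%, stands beside 32.6% over the table, and 25% were higher beside 33.0%. The list was chosen with earlier results of these data known, so nothing particular to it is read from these shares.

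**Figure D3:**
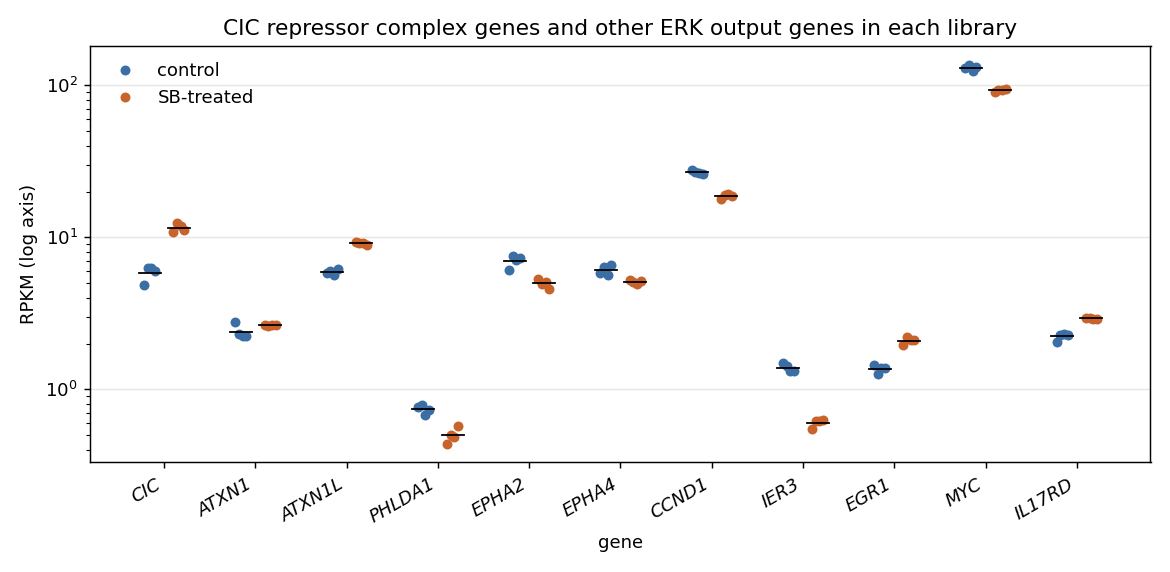
RPKM of 3 genes of the CIC repressor complex and 8 other ERK output genes in each library on a log axis, with 1 point per replicate (4 control, 4 SB-treated) and a line at the group mean. CIC and ATXN1L rose to 11.6 and 9.14 RPKM, IER3, CCND1 and MYC lie lower in all SB-treated replicates, and EGR1 and IL17RD lie higher.

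Upstream of ERK, the changes ran in both directions, and the counts of each list stand beside 33.0% higher and 32.6% lower among all genes. Among 13 measured growth factor receptor genes, 6 were higher and 3 lower. The largest rise was in INSR, the insulin receptor gene, from 6.35 to 10.5 RPKM (log2 fold change 0.65), and the largest fall in FGFR4, an FGF receptor gene, from 19.2 to 14.3 RPKM (-0.39). Of 19 ligand genes, 9 have no row, and of the 10 measured 5 were higher and 1 lower. Among the 5, EGF had 24 to 30 reads per control library, less than 1 CPM, and 42 to 50 after SB. EGF has a row only through SB-treated libraries, so the authors' filter favored its rise, and the count of 5 carries this limit. FGF21, an endocrine FGF, rose from 1.20 to 1.81 RPKM (0.35, and 0.58 with voom), and PDGFA was at 2.51 and 2.13 RPKM (-0.17) with overlapping groups. The call for PDGFA was lost without the TMM factors and without control replicate 2 or 4 or SB-treated replicate 2 or 4, with log2 fold changes between -0.15 and -0.09.

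Of 10 adaptor and exchange factor genes, 5 were higher and 2 lower. GAB2, a docking protein gene, rose from 3.08 to 4.73 RPKM (log2 fold change 0.49), and GRB2, the adaptor that brings the RAS exchange factor SOS to receptors, fell by 21.4% to 39.3 RPKM (-0.34). Of 11 genes of RAS proteins and their regulators, 3 were higher and 2 lower. RASAL2, a RAS GTPase-activating protein gene, rose from 4.24 to 6.52 RPKM (0.52), and RRAS fell from 10.9 to 8.19 RPKM (-0.37). Among 13 genes of RAF, MEK, ERK and their scaffolds, 5 were higher and 4 lower. The scaffold gene KSR1 rose from 3.22 to 4.42 RPKM (0.36), and PEBP1, which encodes an inhibitor of RAF, fell from 143 to 98.5 RPKM (-0.53). Of 9 ERK substrate genes, 4 were higher and 1 lower. MKNK2, a kinase of the translation factor eIF4E, rose from 20.4 to 35.8 RPKM (0.78), and ERF, an ETS repressor that ERK exports from the nucleus, fell from 26.5 to 20.3 RPKM (-0.37). The median log2 fold change of these lists lay between -0.06 and 0.10. Over all 87 measured pathway genes outside the 10 listed ones, 36 (41.4%) were higher and 22 (25.3%) lower, beside 33.0% and 32.6% of all genes, and nothing particular to the pathway is read from these shares. Without control replicate 1 the counts were 39 and 26, and 4 in place of 3 receptor genes were lower. Without the TMM factors they were 49 and 16, and the share of higher genes among all calls in the table moved from 50.2% to 65.1%.

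**Figure D4:**
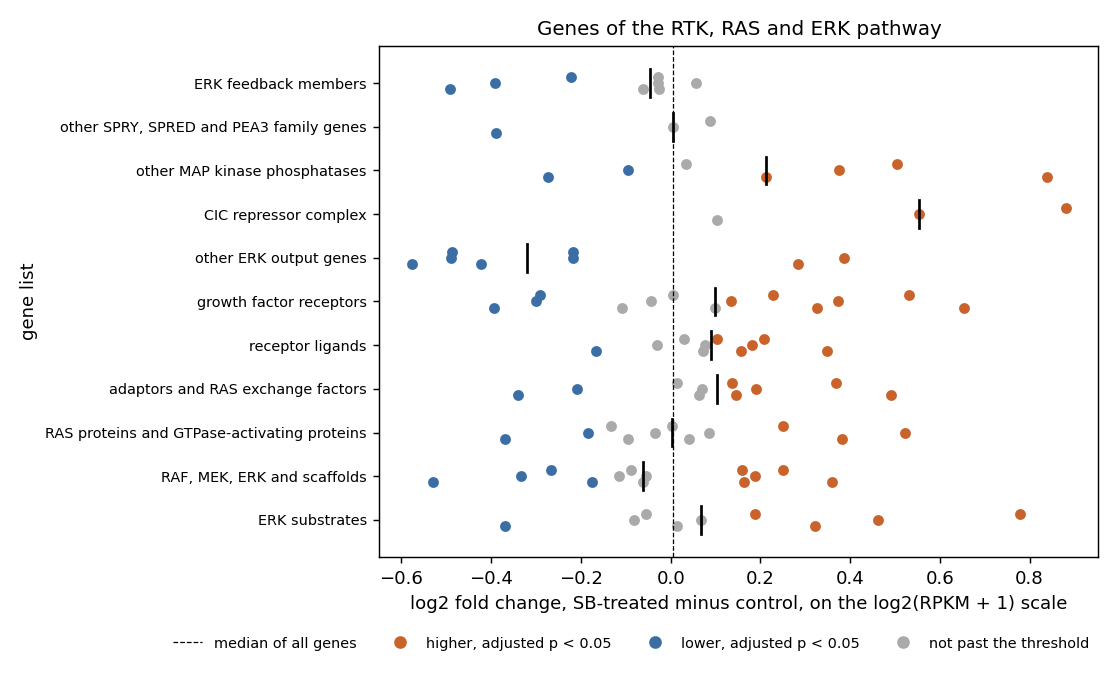
Log2 fold change, SB-treated minus control, on the log2(RPKM + 1) scale for each measured gene of 11 lists of the receptor, RAS and ERK pathway, colored by the call at an adjusted p-value below 0.05, with a black line at the median of the list and a dashed line at the median of all genes. The medians reach from -0.32 for the 8 other ERK output genes to 0.55 for the CIC repressor complex. The latter list has only 3 genes, and its median is the value of ATXN1L. The median of the 8 ERK feedback members is -0.05.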

How the data were processed

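RNA was sequenced from 4 control and 4 SB-treated cultures of HepG2 cells. The authors prepared stranded total-RNA libraries, mapped single reads to hg38 with TopHat2 2.1.0, counted them per gene with featureCounts 1.5.0, dropped genes that did not exceed 1 CPM in 2 or more samples, and scaled the libraries with the TMM method in edgeR 3.16.5. Whether the counting used strand is not given in the sources used here. The deposited table lists RPKM in every library for 14526 genes, each above 0. Their table also holds a log2 fold change, a mean log2 CPM, a p-value and an FDR per gene from the authors' own comparison, which were not used here.

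Groups and replicate numbers were taken from the sample titles. Since RPKM is a read number over a length and a depth, whole reads could be worked out for 100% of the genes (tolerance 0.03 reads), up to a factor common to the 8 libraries of a gene. For the comparison of groups, log2(RPKM + 1), with a pseudocount of 1, was fitted in limma 3.58.1 (R 4.3.3) with p-values adjusted by Benjamini-Hochberg across the 14526 genes and a threshold of 0.05. Permutation tests of single genes were exact and two-sided (scipy 1.17.1, Python 3.11.15). The scripts were tested on simulated data. Alternatives were a pseudocount of 0.1, a minimum mean of 1 RPKM, library sizes without TMM factors, median-of-ratios scaling, limma voom on the recovered reads, a replicate block, and omission of each library in turn.

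The genes named are the 10 listed genes, the remaining genes of their families, genes of the CIC complex and other ERK output genes. From each other pathway list, those with the largest rise and the largest fall past the threshold on the log2(RPKM + 1) scale are named. On that scale KSR2 (ratio of means 2.52) ranks behind KSR1 (1.37), and EGF (1.71) behind FGF21 (1.51). For the highest-expressed member of each family, the 3 genes and the member most correlated with it are named as well. The members and lists were chosen with earlier results of these data known. Coordinates are from GENCODE release 44 on hg38, and promoter sequences from RefSeq on GRCh38.p14. ChIP-seq data were not analysed here. The values of 1 hepatocyte marker are not reported here.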

Additional observations from a re-analysis of the deposited data

Results flagged for a closer look

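In 4 of 58 groups of 4 replicates examined, 1 library lay far from the other 3 by Dixon's test at the 95% level, where chance gives about 2.9. Among the members this was ETV4 in the controls, where replicate 3 was at 0.568 RPKM and the others were between 0.315 and 0.354 RPKM, a gap of 0.831 of the range. Without this library the log2 fold change of ETV4 was 0.03 in place of -0.03, not called either way. ATXN1 in control replicate 1 was at 2.78 RPKM against 2.25 to 2.30 RPKM in the other controls (0.893 of the range). IL17RD in the same library was at 2.05 RPKM against 2.28 to 2.31 RPKM (0.898). IER3 in SB-treated replicate 1 was at 0.549 RPKM against 0.619 to 0.624 RPKM (0.926).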

How the results depend on the processing

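SPRY1, SPRY2 and DUSP4 stayed lower with an adjusted p-value below 0.05 in all alternative fits that held them, and no member was higher in any. Over the fits that kept all libraries, the log2 fold change ranged from -0.58 to -0.40 for SPRY1, from -0.44 to -0.30 for SPRY2 and from -0.52 to -0.18 for DUSP4. A minimum mean of 1 RPKM removed DUSP4, ETV4 and ETV5 and so left 2 members lower in place of 3. When each library was left out, between 3 and 4 members were lower and 0 higher, the fourth being DUSP5 without control replicate 1. Without the TMM factors the median log2 fold change of all genes moved from 0.00 to 0.08, and DUSP7 turned from -0.10 to 0.0005. DUSP5, SPRED1 and SPRED2, not called, also changed sign there, to 0.01, 0.04 and 0.06. Of the 87 other pathway genes, 10 lost their call and 17 gained one in at least 1 fit. Without control replicate 1, 5459 genes were higher and 5511 lower, against 4787 and 4740 with all libraries. With the replicate number as a block, 3 members, 4885 genes higher and 4894 genes lower were called. There 1 other pathway gene was added, the receptor gene FGFRL1, which is named here after its values were seen. FGFRL1 was at -0.11 without the block, just short of the threshold (limma adjusted p = 0.0514). It was also added with median-of-ratios scaling and without control replicate 1. Same-numbered replicates correlated by 0.38, 0.327, 0.173 and -0.16 in their deviations. Since 1 of these 4 values was not over 0.1, the numbers were not taken as pairs, although 4 of 8 samples correlated best with their own number. Among the members ETV4 had the fewest reads, 33 to 56 per library.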
